A study of Drosophila melanogaster with 4 samples.

Results

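Apoltp, bmm and AkhR are 3 genes of lipid mobilisation and transport in the fruit fly, and were followed here in heads of male flies fed levetiracetam. They are 3 of the 6793 genes named on the array, found by their symbol in the platform's probe table. They had been chosen on measured ratios of these same arrays, so their ratios are given as a description with no test. Their identifiers are Dmel_CG15828 for Apoltp, Dmel_CG5295 for bmm and Dmel_CG11325 for AkhR. Each gene had 1 pair of neighbouring spots, which together make 1 feature.

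Flies store energy as triglyceride in lipid droplets, mainly in the fat body, an organ with the roles of liver and adipose tissue and of which a part lies in the head around the brain. Adipokinetic hormone is released when fuel is short, binds the receptor AkhR on fat body cells and promotes the release of stored fat. The lipase brummer, encoded by bmm and related to the mammalian adipose triglyceride lipase, breaks triglyceride down on the droplet. Lipids then travel in the haemolymph on lipophorin particles, built on the product of apolpp and loaded with the help of a second particle whose apolipoprotein is encoded by Apoltp.

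On each of 4 arrays a pool of heads from flies given the antiepileptic drug levetiracetam was set against a pool from flies left on normal food. The drug was mixed into the food at 5 mg/ml and given for 3 days. All flies were Oregon-R wild type males, described as unmated, held in vials of 30 flies and first kept on normal food for 7 days. Their age is given as 3 to 4 days in the sample labels, where an age is given, whereas the design text has flies of 7 to 10 days entering treatment. Every pool holds heads of many flies, so fewer cells of a type and less RNA per cell cannot be told apart. Levetiracetam RNA carried Cy5 on replicates 1 and 2 and Cy3 on replicates 3 and 4. Values are printed as log2 of levetiracetam over normal food, so the sign was turned in replicates 3 and 4. This direction is only likely, because the sources used here do not state which dye the deposited ratio has on top. As deposited, all pairs of arrays correlated positively over shared features. Pearson r was 0.23 and 0.20 for pairs with levetiracetam in the same dye, and between 0.10 and 0.19 for pairs across the swap. With replicates 3 and 4 turned, the correlations across the swap become negative, so over all features the arrays do not agree there. Values as deposited are therefore given beside the main ones.

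Between 29.1% and 45.6% of the 27648 spots had a value on an array, and 2259 genes had one on at least 3 arrays. The array medians over genes, in the likely direction, were -0.16 in replicate 1 and -0.18 in replicate 2 with Cy5, but 0.090 in replicate 3 and 0.31 in replicate 4 with Cy3. A ratio therefore has to be read against the median of its own array. In limma's one-sample fit 0 of 3980 features and 0 of 2259 genes passed an adjusted p of 0.05, a background of 0%, and 60 genes (2.66%) had an unadjusted p under 0.05. Brightness was not used here, so absolute levels cannot be checked and the head label can be checked only by which markers gave a value. Of 8 eye markers named on the array, trpl, inaD, inaC and Arr1 had a value on 4 of 4 arrays, trp on 2 and st on 1, while Arr2 and chp had none. Of 3 neuronal markers nSyb and Gad1 had a value on 4 of 4 arrays and Appl had none. Of 5 glial markers 2 were measured on at least 3 arrays and nrv2 had no value. All 7 muscle markers named on the array also gave values, Act88F, TpnC73F and Zasp66 on 4 of 4 arrays. The label is thus met by some eye and neuronal markers only, and ninaE, elav and repo were not analysed here.

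Apoltp codes for the apolipoprotein of the lipid transfer particle, which moves lipid between tissues and lipophorin. Its ratio was 0.35 in replicate 2, 0.88 in replicate 3 and 1.05 in replicate 4, and it had no value in replicate 1, where neither spot was kept. All 3 values lay above 0, the one with Cy5 below those with Cy3. The mean was 0.76 ± 0.36 (SD, n = 3), or 1.69-fold. The neighbouring spots had the same sign on every array. They stood at 0.21 and 0.50 in replicate 2, at 1.05 and 0.71 in replicate 3, and at 1.38 and 0.72 in replicate 4. The largest gap between its spots, 0.67 in replicate 4, compares with a median gap of 0.29 over all pairs of that array, and 21.8% of pairs differed by more.

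Measured against the other genes of the same array, Apoltp stood in nearly the same place each time. It lay above 91.3% of 3703 genes in replicate 2, above 94.3% of 2347 genes in replicate 3 and above 91.2% of 2893 genes in replicate 4. With the median over features of each array subtracted, its values were 0.51, 0.80 and 0.74, and the mean was 0.69 ± 0.15 (SD, n = 3). With a local median over neighbouring features subtracted in its place, the mean was 0.63 ± 0.21. As deposited, the mean was -0.53 ± 0.77, with 1 of 3 values above 0.

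The lipase gene bmm stood at 0.32 and 0.042 in replicates 1 and 2 and at 0.44 and 1.03 in replicates 3 and 4. All 4 values lay above 0, replicate 4 well above the rest and replicate 2 close to 0. The mean was 0.46 ± 0.42 (SD, n = 4), or 1.37-fold, and 0.27 without replicate 4. The value of replicate 2 joined spots of opposite sign, at -0.29 and 0.37, whose gap of 0.66 was exceeded by 14.6% of the pairs on that array. In replicate 1 the spots stood at 0.054 and 0.58. In replicate 4 they almost coincided, at 1.04 and 1.02, so the highest of the 4 values was also the one on which the spots were closest.

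Relative to other genes, bmm lay above 92.9% of 2278 genes in replicate 1, 70.6% in replicate 2, 82.4% in replicate 3 and 90.7% in replicate 4. Subtracting array medians left values of 0.46, 0.20, 0.36 and 0.73 in replicates 1 to 4, with a mean of 0.44 ± 0.22 (SD, n = 4). The spread was smaller than without this step, and the mean was almost the same. With the local median subtracted the mean was 0.39 ± 0.20. As deposited it was -0.28 ± 0.59, with 2 of 4 values above 0.

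AkhR, the receptor gene, stood at -0.97 and -0.26 in replicates 1 and 2 and at 0.19 and -0.086 in replicates 3 and 4. It was lower with levetiracetam on 3 of 4 arrays and slightly higher in replicate 3, with 1 value, that of replicate 1, far from the others. The mean was -0.28 ± 0.50 (SD, n = 4), or 0.82-fold. Without replicate 1 it was -0.053 and without replicate 3 it was -0.44. In replicate 1 the spots stood at -0.67 and -1.28, a gap of 0.61 that 17.3% of pairs exceeded. In replicates 2 and 3 the spots lay within 0.042 and 0.041 of each other. The value of replicate 4 joined spots of opposite sign, at 0.025 and -0.20, so its sign about 0 is not firm. Both spots lay below that array's median of 0.31.

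Within replicate 1 only 2.81% of 2278 genes lay below AkhR, and within replicate 4 only 12.9% did. In replicates 2 and 3 it lay near the middle, above 42.9% and 62.3% of genes. The mean with array medians subtracted was -0.30 ± 0.41 (SD, n = 4), with 1 of 4 values above 0. With the local median subtracted all 4 values were below 0, at -0.62 and -0.11 in replicates 1 and 2 and at -0.11 and -0.71 in replicates 3 and 4, with a mean of -0.38 ± 0.32. As deposited the mean was -0.34 ± 0.45. The mean of AkhR was thus negative under both readings, while those of Apoltp and bmm changed sign. Only 19% of all genes had a mean above 0 as deposited. As deposited and with the local median subtracted, AkhR averaged 0.022 ± 0.55, bmm 0.043 ± 0.49 and Apoltp -0.36 ± 0.66, so the sign of AkhR was not kept there.

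**Figure D1:**
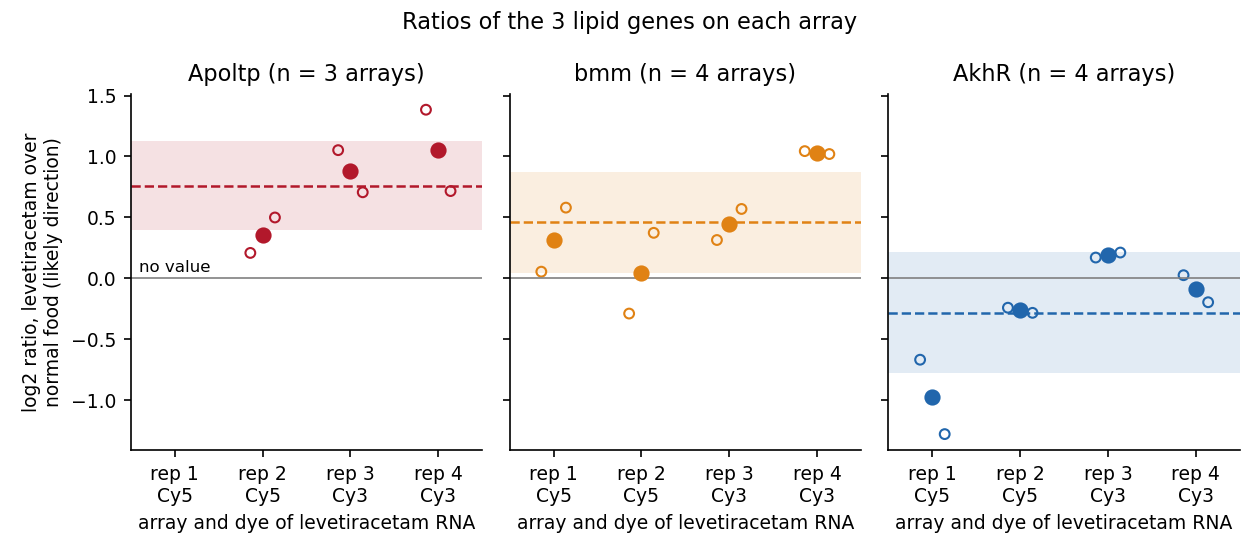
Log2 ratios of levetiracetam over normal food (vertical axis, likely direction) on each array (horizontal axis, with the dye of levetiracetam RNA). Filled points are features, open points are their neighbouring spots, the dashed line is the mean and the band is 1 SD on either side. Apoltp and bmm lie above 0 on every array with a value, and AkhR is lowest in replicate 1 at -0.97.

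On the same array bmm exceeded AkhR by 1.29 and 0.30 in replicates 1 and 2, and by 0.25 and 1.12 in replicates 3 and 4. The mean difference of these ratios was 0.74 ± 0.54 on the log2 scale (SD, n = 4). Subtracting the 2 ratios on an array cancels the array's median, so this difference does not depend on centring. Apoltp exceeded AkhR by 0.62, 0.69 and 1.14 in replicates 2, 3 and 4, and its mean difference was 0.81 ± 0.28 (n = 3). Apoltp and bmm lay closer together, 0.26 ± 0.22 apart. All these differences have the opposite sign in replicates 3 and 4 if the values are read as deposited.

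**Figure D2:**
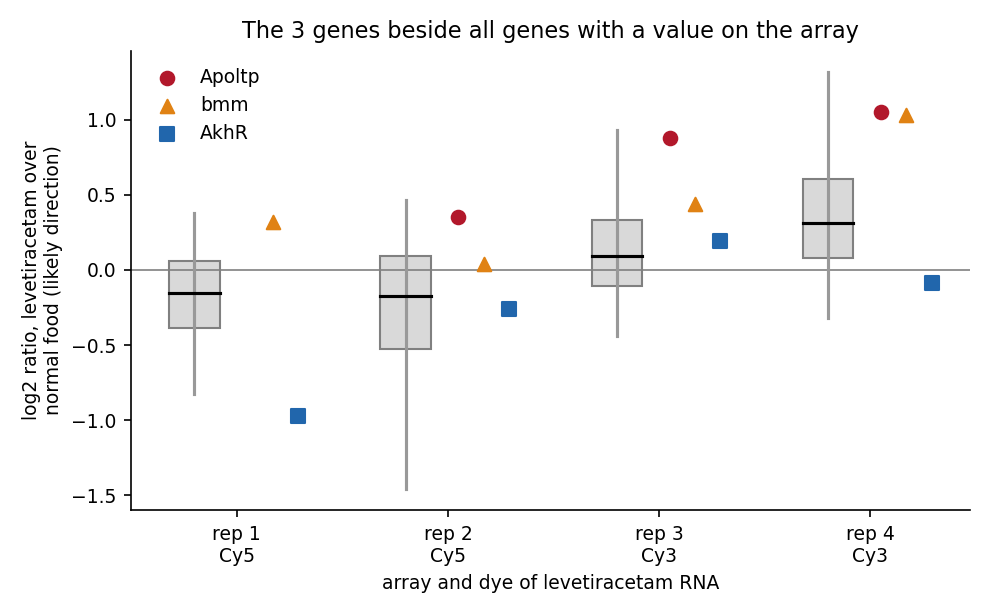
Log2 ratios (vertical axis, likely direction) of Apoltp, bmm and AkhR on each array (horizontal axis) beside all genes with a value there. Boxes span the 25th to 75th percentile, lines the 5th to 95th, and the bar is the median. The boxes shift upward on the Cy3 arrays, where the medians are 0.090 and 0.31, and AkhR lies below the median on 3 of 4 arrays.

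The other reading of the ratio was followed with the dye orientation term. The genes were chosen with values as deposited also in view, so the term is given for them as a description with no test. For a gene with 4 values it equals the mean of the values as deposited, which would be the effect of levetiracetam had the swap been dealt with before deposit. The term was -0.28 with an SE of 0.16 for bmm and -0.34 with an SE of 0.16 for AkhR. For Apoltp, where 1 array alone holds the Cy5 orientation, it was -0.31 with an SE of 0.19. Over all genes 94 of 2259 (4.16%) passed an adjusted p of 0.05 for this term in limma, but 0 did with arrays centred, 1 with the local median subtracted and 0 without replicate 3. Each of these terms lies well inside the range of other genes, with 23.9% of genes below AkhR, 28.0% below Apoltp and a somewhat larger share below bmm.

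Taken within 1 orientation, Apoltp stood at 0.35 on its single Cy5 array and at 0.96 ± 0.12 on the Cy3 arrays (SD, n = 2). The mean of bmm was 0.18 ± 0.19 with Cy5 and 0.74 ± 0.42 with Cy3. That of AkhR was -0.62 ± 0.50 with Cy5 and 0.052 ± 0.20 with Cy3. All 3 genes had higher ratios on the Cy3 arrays, as did the array medians. With array medians subtracted, AkhR stood at 0.11 in replicate 3 and -0.39 in replicate 4, so its mean over the Cy3 arrays was above 0 only without that step.

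**Figure D3:**
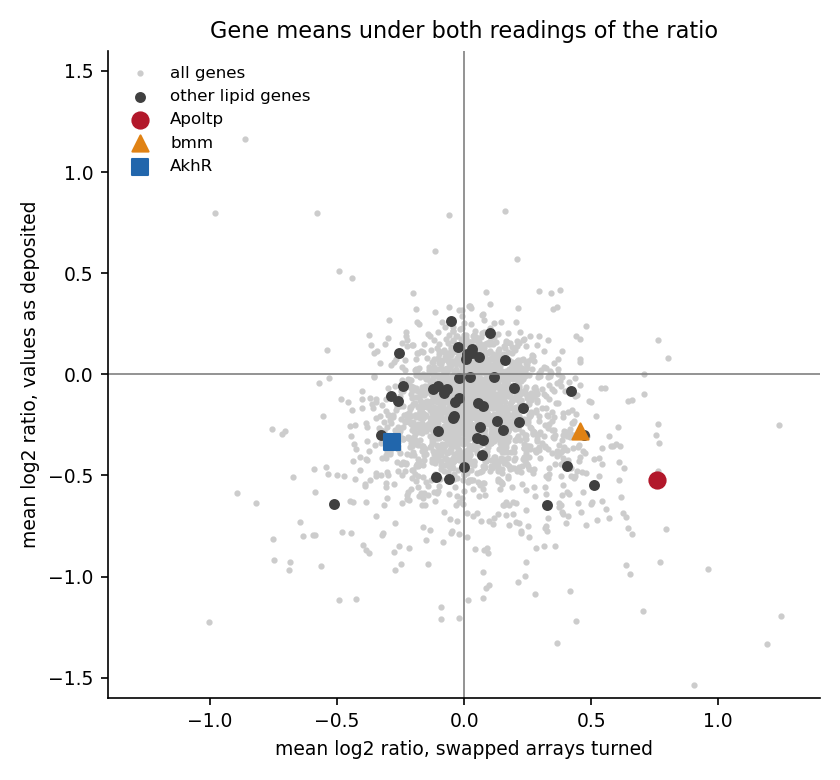
Mean log2 ratio of each gene with the swapped arrays turned (horizontal axis) against the mean of the values as deposited (vertical axis), for 2258 of 2259 genes, with 1 outside the axes. Apoltp lies at 0.76 and -0.53, bmm at 0.46 and -0.28 and AkhR at -0.28 and -0.34, and most genes lie below 0 on the vertical axis.

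Other genes of the pathway were grouped in 8 lists. Without the 3 genes above they held 171 genes, of which 90 were named on the array, 46 had a value on at least 3 arrays, 25 on fewer and 19 on none. In limma 0 of the 46 passed an adjusted p of 0.05 in either direction, and 2 had an unadjusted p under 0.05, against 2.66% of all genes. Their median was 0.017, beside 0.027 over all genes. Of the 46, 25 lay above 0, where 57.3% of all genes did. As deposited 10 did, where the share of all genes was 19%, and with arrays centred 21 did, where it was 51.5%. The genes lower on both Cy5 arrays and higher on both Cy3 arrays were 10 of 36 with 4 values, against 26.4% of all genes, so the lists share the split of the arrays.

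Lipoprotein and lipid carrier genes included the partners of Apoltp, and 0 of 7 measured members passed. The list's median was 0.012, with 4 members above 0. Mtp, which codes for the transfer protein that loads lipid onto these apolipoproteins as they are made, stood at -0.054, 0.99 and 0.60 in replicates 2, 3 and 4. Its mean of 0.51 ± 0.53 (SD, n = 3) was the highest of the 7, and it was 0.27 without replicate 3. Like Apoltp it had no value in replicate 1 and was negative as deposited, at -0.55.

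The lipophorin gene apolpp went the other way on most arrays. It stood at -0.65 and -0.60 in replicates 1 and 2 and at -0.30 and 0.24 in replicates 3 and 4, with a mean of -0.33 ± 0.41 (SD, n = 4). Its 2 features gave nearly the same mean, -0.34 and -0.31. It was below 0 on 3 of 4 arrays and above 0 in replicate 4. It lay below the array's own median in every replicate, also in replicate 4, where that median was 0.31. Its mean was negative as deposited too, at -0.30, where only 19% of all genes had a mean above 0. On the 3 arrays that hold both, Apoltp was above apolpp.

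The lipophorin receptor gene LpR2 had the most even gene mean of the list, -0.24 ± 0.079 (SD, n = 4). Its features did not share that evenness. One stood at 0.16, -1.13 and 0.21 in replicates 1 to 3 and the other at -0.65, 0.43 and -0.59, with opposite signs each time, and only the first had a value in replicate 4, at -0.18. The small SD thus comes from averaging features that opposed each other. For LpR1, a related receptor gene, the features had means of -0.099 and 0.33. The sterol carriers Npc1a, Npc2a and Npc2b had means of -0.080, 0.031 and 0.012.

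Among lipase genes 3 besides bmm were measured, and 0 passed. Lip1 and CG5162 had means of -0.021 and -0.025, close to the list's median of -0.025. The gene sxe2 stood at -0.98, -0.75 and 0.19 in replicates 1, 2 and 4, with a mean of -0.51 ± 0.62 (SD, n = 3). Of 19 lipase genes listed, 14 were named on the array and 7 had a value on 1 or 2 arrays only. The hormone-sensitive lipase gene Hsl was not analysed here, so the second lipase of the droplet cannot be set beside bmm.

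Downstream of the receptor, the adipokinetic hormone list had 3 measured genes besides AkhR, and 0 passed. Galphaq, Galphas and Pka-R1, which code for G protein subunits and a regulatory subunit of protein kinase A, had means of -0.020, 0.070 and -0.0019. Like 26.4% of all genes with 4 values, all 3 lay below 0 on both Cy5 arrays and above 0 on both Cy3 arrays. Galphas, for example, stood at -0.50 and -0.16 in replicates 1 and 2, and at 0.24 and 0.70 in replicates 3 and 4. The array medians show the same split. AkhR differed from the 3 genes in replicate 4, where it was below 0, though that value joined spots of opposite sign. The features of Pka-R1 differed in the sign of their mean, at 0.15 and -0.027.

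On the droplet surface Lsd-2, a perilipin that shields stored fat, stood at -0.41 and 0.31 in replicates 1 and 2, and at 0.24 and 1.49 in replicates 3 and 4. The mean was 0.41 ± 0.79 (SD, n = 4), and 0.047 without replicate 4. The other measured gene of the list was mdy, a diacylglycerol acyltransferase of triglyceride synthesis, at 0.021 ± 0.45. Neither passed.

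In fatty acid and triglyceride synthesis 0 of 11 measured genes passed, and 7 lay above 0, or 1 as deposited. The median was 0.074. The gene mino codes for a glycerol-3-phosphate acyltransferase at the first step of glycerolipid synthesis. It stood at -0.022 and 0.37 in replicates 1 and 2 and at 0.78 and 0.76 in replicates 3 and 4, with a mean of 0.47 ± 0.38 (SD, n = 4), and -0.30 as deposited. The fatty acid synthase gene FASN1 had a mean of -0.035 ± 0.45, and the desaturase gene Desat1 one of 0.074 ± 0.61, between -0.62 and 0.85 on single arrays. ATPCL, which makes cytosolic acetyl-CoA, had features with means of -0.36 and 0.14. SREBP, a regulator of lipid synthesis, had a mean of 0.16 ± 0.28. The elongase gene Elovl7 had the lowest mean of the list, -0.26 ± 0.32.

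In fatty acid oxidation 0 of 7 measured genes passed and all means lay between -0.066 and 0.22, with a median of 0.057. Acadvl, an acyl-CoA dehydrogenase, was at -0.066 ± 0.13 (SD, n = 4). The carrier gene colt, needed for entry of acyl-carnitine into mitochondria, was at 0.13 ± 0.41, or -0.071 without replicate 4. The genes whd, for carnitine palmitoyltransferase, and Mfe2 had values on 2 arrays only.

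Among fatty acid uptake and scavenger receptor genes 0 of 6 measured genes passed, with 3 above 0 and a median of -0.00050. CG3829, which belongs to the CD36 family of scavenger receptors, stood at -0.0035 and -0.64 in replicates 1 and 2 and at 0.98 and 0.97 in replicates 3 and 4. Of the 46 lipid genes it alone passed for the dye orientation term, at -0.65 (adjusted p = 0.0353 in limma). Over all genes 94 of 2259 (4.16%) passed for that term, and with arrays centred no gene did. CG10345, of the same family, was below 0 on all 4 arrays, with a mean of -0.26 ± 0.30 (SD, n = 4).

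Insulin and nutrient signalling gave 0 of 8 measured genes past the test, with 4 above 0 and a median of -0.015. The gene Lst, which codes for limostatin, a peptide known in flies to restrain insulin release, stood at 0.36 and 0.32 in replicates 1 and 2 and at 0.35 and 0.66 in replicates 3 and 4. It was the only one of the 46 genes above 0 on every array with a value, where 7.88% of all genes were, and its mean was 0.42 ± 0.16 (SD, n = 4). As deposited its mean was -0.083. Bmm and Apoltp also lay above 0 on every array with a value, which cannot count as support because they were chosen on these ratios. The genes below 0 on every array with a value were 3 of 46 (LpR2, CG10345 and sug), where 3.36% of all genes were. Of these, sug had no value in replicate 4. Foxo, a transcription factor that raises bmm expression in fasted flies, had a mean of -0.038 ± 0.27, and the insulin-like peptide gene Ilp2 one of 0.12 ± 0.17.

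**Figure D4:**
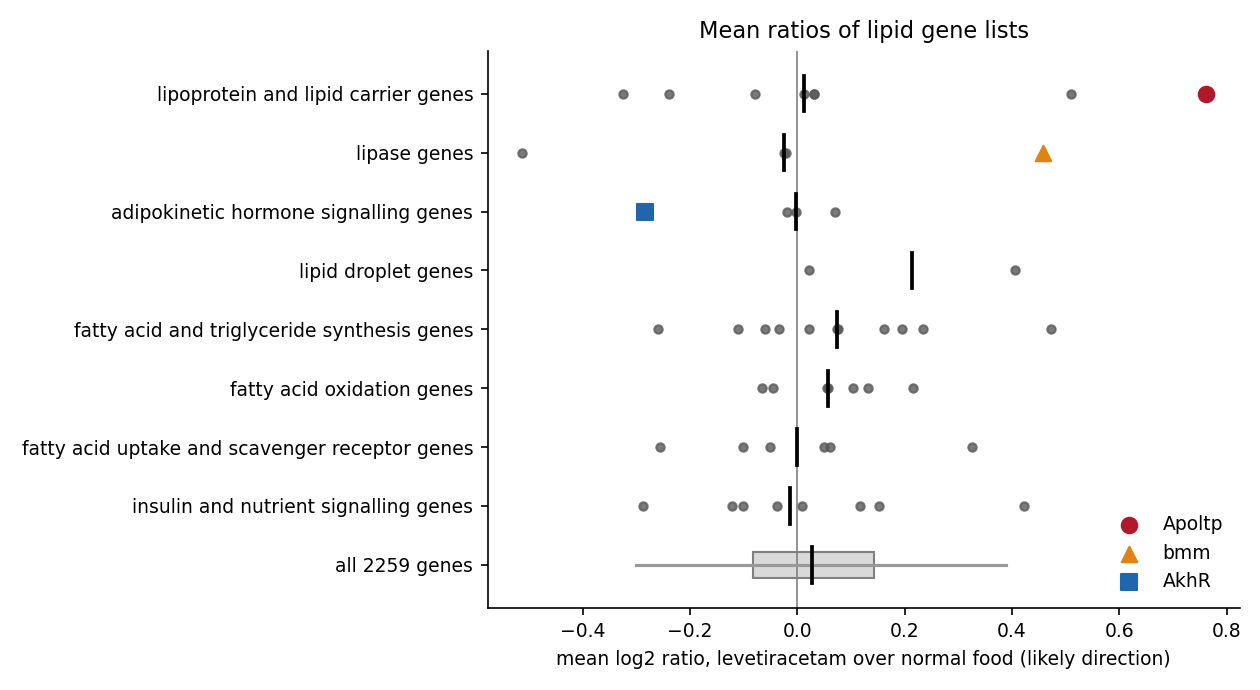
Mean log2 ratios of levetiracetam over normal food (horizontal axis, likely direction) for genes on at least 3 arrays in each lipid list (rows). Grey points are single genes, black bars are list medians without the 3 coloured genes, and the box, line and bar of the lowest row give the 25th to 75th percentile, 5th to 95th percentile and median of all 2259 genes. Apoltp at 0.76 and bmm at 0.46 lie to the right of their lists and AkhR at -0.28 to the left.

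Since all 3 genes are active in fat body, other markers of that organ were read beside them. Of 15 such markers 9 were named on the array, 3 were measured on at least 3 arrays and 4 on fewer, while Fbp1 and fit had no value on any array. The measured ones were apolpp, Lsp2 at 0.051 ± 0.31 (SD, n = 3) and Yp2 at -0.23 ± 0.089 (n = 4). Their median was -0.13 in replicate 1, -0.29 in replicate 2, -0.31 in replicate 3 and 0.24 in replicate 4. It lay below 0 in replicates 1 to 3 and above 0 in replicate 4, while bmm lay above 0 on all 4 arrays. The arrays' own medians over genes were -0.16, -0.18, 0.090 and 0.31 in replicates 1 to 4. Beside these, the marker median lay slightly above in replicate 1 and below in replicates 2 to 4. Apoltp and bmm, chosen on these ratios, lay above the array's own median wherever they had a value. AkhR, chosen likewise, lay below it in replicates 1, 2 and 4 and above it in replicate 3. The 4 markers on fewer arrays all had means below 0. These were -0.55 for Fbp2, -0.82 for Yp3 and -1.14 for Obp99b over 2 arrays each, and -2.16 for Yp1 on 1 array. Fbp2 and Obp99b had values in replicates 1 and 2 only, and Yp1 in replicate 2 only. Yp3 stood at -1.57 in replicate 2 and -0.070 in replicate 4. Most of these values thus come from the Cy5 arrays, whose own medians lay below 0. All flies were males, and whether the yolk protein genes Yp1, Yp2 and Yp3, or the other markers, stand for fat body in male heads was not tested. Summed levels cannot be given from ratios, and the part of fat body content in the result was not tested.

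Finally, the genes whose ratios followed each of the 3 most closely were found by the root mean square difference over the arrays on which it had a value. This measure is the same under both readings of the ratio. It is a description over 3 or 4 arrays that share a dye swap. Nearest to Apoltp among 1918 genes was IP3K1, an inositol trisphosphate kinase gene, at a difference of 0.054 over 3 arrays, followed by BomT3, a secreted immune peptide gene, at 0.17 and mino at 0.18. In replicate 1, which Apoltp lacks, BomT3 stood at -0.41 and mino at -0.022.

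Nearest to bmm among 1631 genes were Cpsf6, an RNA 3′ end processing factor, at a difference of 0.096 over 4 arrays, AdipoR, the fly's adiponectin receptor gene, at 0.13, and Sesn, which codes for the stress protein sestrin, at 0.14. AdipoR stood at 0.19 and -0.033 in replicates 1 and 2 and at 0.44 and 0.83 in replicates 3 and 4. Nearest to AkhR were CG15236 at 0.16, yki, the transcriptional coactivator of the Hippo pathway, at 0.17, and CG4911 at 0.18. All 3 were lowest in replicate 1, between -0.90 and -0.64.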

How the data were processed

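Arrays of 2 colours, printed with cDNA, measured RNA from pools of fly heads. Per the series' design text, the authors' slides were read in GenePix Pro 6.0, normalized by ratio in Acuity 4.0 and filtered for saturated, flagged or weak spots. The deposited values are log2 ratios, a scale read from the values. Their direction and centring are unknown. Both spots of a feature were averaged, then features of a gene, and replicates 3 and 4 were turned. Names came from the platform annotation through gene IDs of the RefSeq table (Release 6, used for names only), where 14894 of 15116 spots with 1 symbol matched. Limma 3.58.1 in R 4.3.3 fitted features or genes with a value on at least 3 arrays, two-sided, with Benjamini-Hochberg adjustment, and was tested on simulated data. The depth of a spot is unknown, and 4 arrays limit the precision. The 3 genes and the lists were chosen with earlier results of these data known. Any measured list gene could be named, and so could the 3 genes nearest to each of Apoltp, bmm and AkhR. Alternatives covered direction, centring, a local median over 50 features on either side, replicates left out, spots behind a feature, ratios beyond 3 and missing values. The replicates are described as separate pools of flies. The authors' test (SAM 3.0) was not run here, and a genome build is not given in the sources used here.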

Additional observations from a re-analysis of the deposited data

Results flagged for a closer look

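Among the named genes with 4 values, 7 of 45 sets held 1 array far from the other 3, where chance alone marks about 1 in 20, or 2.25. That chance number holds for values with a common centre. It does not hold for genes picked for likeness to Apoltp, bmm or AkhR, which are among the 45. Of the marked sets, yki was picked as near AkhR, which is itself lowest in replicate 1. The ratios were not centred here, and array medians over genes ran from -0.18 in replicate 2 to 0.31 in replicate 4. How far the marked sets follow these shifts of whole arrays was not tested. None of the sets of bmm and AkhR was among them, and Apoltp has 3 values and was not tested. Replicate 4 stood apart for colt at 0.74, against -0.11 to -0.013 on the others, for Lst at 0.66, against 0.32 to 0.36, and for LpR1 at -0.35, against 0.15 to 0.16. For LpR1 that array holds only 1 of the gene's 2 features. Replicate 2 stood apart for Fatp3, a fatty acid transport protein gene, at 0.62 (the other arrays lay between -0.35 and -0.20), and for Npc1a at -0.34, against -0.0050 to 0.022. Replicate 3 stood apart for Acadvl at 0.12, against -0.15 to -0.11. Replicate 1 stood apart for yki at -0.88, against -0.10 to 0.047. Without the array in question the means were -0.071 for colt, 0.34 for Lst, 0.16 for LpR1, -0.28 for Fatp3, 0.0077 for Npc1a, -0.13 for Acadvl and -0.0088 for yki.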

How the results depend on the processing

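Of the 3 genes, AkhR had a mean below 0 as deposited, with arrays centred, with the local median subtracted and with any 1 replicate left out, but one of 0.052 on the Cy3 arrays alone, without centring, and 0.022 as deposited with the local median subtracted (both chosen after seeing the data). As deposited the mean was -0.53 for Apoltp and -0.28 for bmm, and with arrays also centred, a choice made after seeing the data, -0.34 and -0.11. With the local median subtracted from values as deposited, Apoltp was -0.36 and bmm 0.043. On the Cy5 array alone, likewise added, Apoltp was 0.35. With 1 replicate left out the means ranged from 0.62 to 0.96 for Apoltp, 0.27 to 0.60 for bmm and -0.44 to -0.053 for AkhR. Requiring both spots, taking the median over spots and leaving out ratios beyond 3 could not change the 3 means. Each gene has 1 feature, its spots were both kept or both missing on an array, and none of their ratios lay beyond 3.

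Genes passing limma's adjusted p of 0.05 for levetiracetam were 1 with arrays centred, 1 with the local median subtracted, 0 to 1 with a replicate left out (dpr16 each time, named after its values were seen) and 4 with dye orientation as a covariate (dpr16, Prosalpha7, dnk and Mst77F), where 1 feature passed. No feature passed with a replicate left out, a range of 0 to 0. Genes passing for the orientation term numbered 94, but 4 as deposited (where it exchanges places with the treatment mean), 0 with arrays centred, 1 with the local median subtracted, 53 with a value on all 4 arrays and 0 to 85 with a replicate left out, 0 of them without replicate 3. Of 54 other named genes, 26 changed sign as deposited, 4 with arrays centred and 10 with the local median subtracted. Each array holds a treated pool and its control pool, so the fit of the ratios against 0 is itself the paired analysis.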

Other observations

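Besides the 46 measured lipid genes, 25 had a value on only 1 or 2 arrays and entered no fit. The largest ratios among them, those of Crtc and Agpat4, are single values with no replicate. Crtc, a coactivator of CREB that takes part in energy balance, stood at -3.24 in replicate 4, and Agpat4, an acyltransferase gene of phosphatidic acid synthesis, at 2.05 there. In replicate 2, the array with the most values, the lipase genes CG5966 and CG6271 stood at -1.51 and -1.24, each the gene's only value. The 5th percentile of genes on that array was -1.46. Over 2 arrays, whd stood at -1.55 in replicate 2 and 0.17 in replicate 3, Mfe2, of peroxisomal fatty acid oxidation, at -0.20 and 1.92 on the same arrays, and the phosphatidate phosphatase gene Lpin at -0.43 in replicate 2 and 1.16 in replicate 4. The droplet protein gene Jabba had a value of -0.35 in replicate 2 only.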
